A study of Mus musculus with 18 samples.

Results

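Kitl encodes Kit ligand, also called stem cell factor, the cytokine that granulosa cells present to the oocyte. Its level was followed in mouse cumulus cells, the granulosa cells nearest to the oocyte, on 18 Affymetrix expression arrays. Kitl is 1 of 18193 genes named on the array, and every probe set whose only annotated symbol is Kitl was taken, which gave 4 of the 45101 in the table: 1415855_at, 1426152_a_at, 1448117_at and 1415854_at. Each array measured 1 sample of amplified total RNA in log2 units after RMA, the robust multi-array average, and the 6 groups held 3 arrays each. The groups were intact cumulus-oocyte complexes (COC), complexes from which the oocyte had been taken out (OOX) and such oocyte-free complexes cultured with oocytes (OOX + Oocytes), together with the same cultures in the presence of estrogen (E2 COC, E2 OOX and E2 OOX + Oocytes). All 18 samples came from antral follicles of female mice and all had been cultured. Strain, age, estrogen dose, culture time and the number of added oocytes are not given in the sources used here. Whether the 3 samples of a group were separate animals or separate cultures is not given either. The p-values below therefore measure the spread between samples that may be technical repeats.

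Kit ligand is made as a membrane-bound protein, and proteases can release a soluble form. It binds KIT, a receptor tyrosine kinase that in the ovary is carried mainly by oocytes and theca cells, and KIT signals through phosphoinositide 3-kinase, the MAP kinase cascade and STAT proteins. In the growing follicle the ligand supports oocyte growth and survival. Oocytes in turn secrete GDF9 and BMP15, which act on cumulus cells through SMAD proteins, and mural granulosa cells on the follicle wall are known to carry more Kit ligand message than cumulus cells. Estradiol acts on granulosa cells through the receptors ESR1 and ESR2.

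Kitl lies on chromosome 10 of the mouse assembly GRCm38.p6, on the plus strand, at chr10:100015615-100100416 in the RefSeq table. The sequence just before a RefSeq start site of the gene is shown for the SP1 and TATA boxes of its core promoter, and a longer window reaching further upstream was searched for the motifs named below. It covers chr10:100015721-100015820, the 100 bases before the start at 100015821, and another gene model begins 206 bases further upstream. In capitals are 2 overlapping copies of the SP1 box (GGGCGG) and a TATA box (TATAAA).
Kitl promoter: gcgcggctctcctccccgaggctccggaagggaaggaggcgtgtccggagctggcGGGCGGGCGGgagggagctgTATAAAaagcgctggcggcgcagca
The SP1 boxes lie at -45 to -40 and -41 to -36 and the TATA box at -25 to -20, counted back from the start. Both strands of the 250 bases before the start were searched, in Kitl and in all 32851 RefSeq promoters of that table. A TATA box stood in 12.4% of promoters and an SP1 box, of which Kitl had 3, in 32.7%. The remaining SP1 box and all matches to the SMAD box lie upstream of the bases shown. The estrogen response element (searched by its consensus, present in 0.0639% of promoters) and its half-site TGACC (35.2%) were not found in this window of Kitl. The SMAD box GTCT, a motif of 4 letters present in 82.9% of promoters, occurred 3 times, while its palindrome GTCTAGAC (0.167%) and the GC-rich SMAD motif GGCGCC (9.59%) did not occur. No match was found for the cAMP response element TGACGTCA (1.55%), its half-site TGACG (17.8%), the FOXO site GTAAACA (3.17%) or the GATA site AGATAA (9.99%). These matches describe letters in the reference and were not tied to any binding.

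Some facts of the arrays touch every result. The title of 1 array placed it in E2 OOX as replicate 1, whereas its other labels gave an oocyte-free culture with no estrogen, and the title was followed. Array names in the labels form 3 series: series 1 holds 13 arrays, series 2 holds OOX replicate 3 and OOX + Oocytes replicate 2, and series 3 holds OOX replicates 1 and 2 and E2 OOX replicate 3. Thus no OOX array without estrogen shares a series with a COC array. Of the oocyte markers 6 of 18 with a probe set lay high enough to be tested, and only Bcl2l10, a BCL2 family member, was called among these, which fell by 3.91 without estrogen on oocyte removal. The message of Gdf9 averaged 6.80 to 7.02 in the 6 groups and did not differ at the threshold in any oocyte comparison (adjusted p 0.759 or more in limma), and Bmp15 at 4.56 to 4.84 was below the level set for testing in group means. In bulk RNA, fewer cells of a type and less RNA per cell cannot be told apart.

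Kitl message was higher in every array of oocyte-free complexes than in every array of cultures that held oocytes (the arrays with oocytes), with and without estrogen. It was lower there but not absent, since 1415855_at and 1426152_a_at lay above the array median in all 12 arrays with oocytes. Probe set 1415855_at, the one with the highest mean over the 18 arrays, read 6.63, 6.37 and 5.62 in the 3 COC arrays. It read 10.96, 10.66 and 10.78 in the 3 OOX arrays. In OOX + Oocytes it read 7.63, 6.64 and 6.90. The OOX arrays thus stood apart from both groups with oocytes by more than 3 log2 units, and the highest COC array lay just below the lowest coculture array. With estrogen the same probe set read 6.98, 7.42 and 7.37 in E2 COC. It read 9.82, 9.78 and 11.47 in E2 OOX, and 7.36, 7.24 and 7.04 in E2 OOX + Oocytes. Here the 6 arrays with oocytes overlapped each other and the 3 oocyte-free arrays were higher, with replicate 3 well above the other two.

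**Figure D1:**
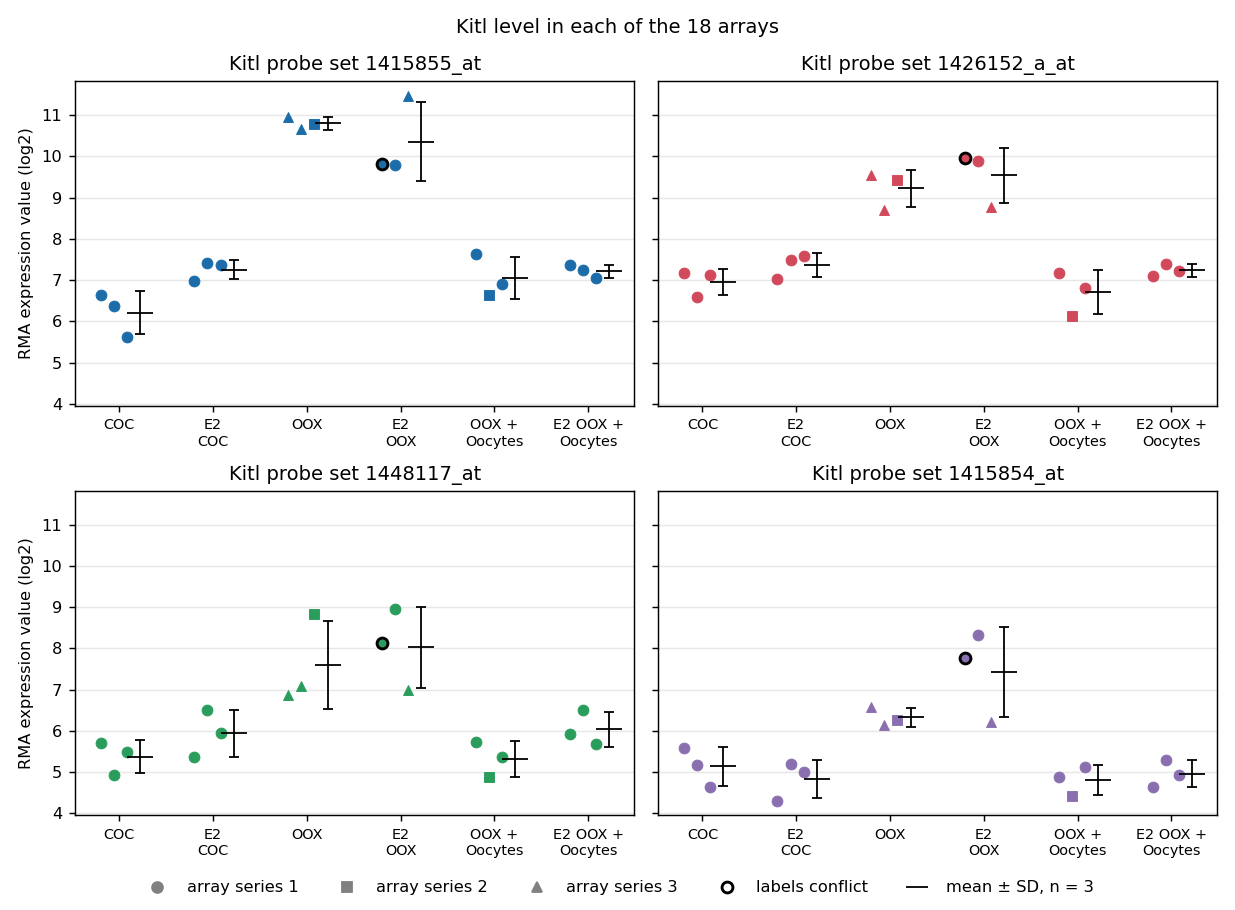
Kitl expression value (RMA, log2) in each of the 18 arrays for the 4 probe sets, with 1 symbol per array, its shape giving the array series, a black rim on the array whose labels conflict, and the group mean ± SD (n = 3) beside the symbols. In each panel the 6 oocyte-free arrays lie above the 12 arrays with oocytes, for 1415855_at at 9.78 to 11.47 against 5.62 to 7.63.

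The other probe sets were ordered the same way. Probe set 1426152_a_at read 7.17, 6.59 and 7.12 in COC, 9.55, 8.71 and 9.42 in OOX and 7.18, 6.14 and 6.81 in OOX + Oocytes. With estrogen it read 7.03, 7.50 and 7.58 in E2 COC, 9.96, 9.90 and 8.78 in E2 OOX and 7.09, 7.40 and 7.22 in E2 OOX + Oocytes. All 6 oocyte-free arrays (8.71 to 9.96) were above all 12 arrays with oocytes (6.14 to 7.58). Probe set 1448117_at read 5.70, 4.94 and 5.49 in COC, 6.88, 7.09 and 8.83 in OOX and 5.74, 4.87 and 5.37 in OOX + Oocytes. With estrogen it read 5.37, 6.50 and 5.96 in E2 COC, 8.14, 8.95 and 6.98 in E2 OOX and 5.93, 6.50 and 5.67 in E2 OOX + Oocytes. Its oocyte-free arrays (6.88 to 8.95) again did not overlap the others (4.87 to 6.50), but spread over a wider range. Probe set 1415854_at read 5.59, 5.17 and 4.65 in COC, 6.58, 6.14 and 6.26 in OOX and 4.87, 4.41 and 5.13 in OOX + Oocytes. With estrogen it read 4.31, 5.20 and 5.00 in E2 COC, 7.76, 8.33 and 6.22 in E2 OOX and 4.65, 5.30 and 4.94 in E2 OOX + Oocytes. It was the dimmest of the 4, and no array with oocytes placed it above that array's median of all probe sets (medians 5.51 to 5.71). Since 1415854_at entered the tests only through the oocyte-free arrays, its differences are given as values and counted as no further support.

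Group means of 1415855_at, from the highest, were 10.8 ± 0.151 in OOX, 10.4 ± 0.964 in E2 OOX, 7.26 ± 0.241 in E2 COC, 7.21 ± 0.162 in E2 OOX + Oocytes, 7.06 ± 0.513 in OOX + Oocytes and 6.21 ± 0.524 in COC (SD, n = 3). The widest gap in that order lay between the oocyte-free groups and the others. OOX and E2 OOX overlapped, as did E2 COC, E2 OOX + Oocytes and OOX + Oocytes, while OOX + Oocytes and COC did not overlap but differed by an amount that was not called. With the other 3 probe sets E2 OOX came first and OOX second, and the groups with oocytes followed in differing orders.

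Removing the oocyte was the first comparison, and it asks what the cumulus cell transcript does once the oocyte is gone. Without estrogen 1415855_at rose by 4.59 ± 0.373 (log2 change ± SE of the fit, 3 arrays a group), or 24.1-fold, with a Benjamini-Hochberg adjusted p of 1.45e-07 in limma over all 25355 tested probe sets. The change of 1426152_a_at was 2.27 ± 0.322 (4.81-fold, adjusted p 5.18e-05) and that of 1448117_at 2.22 ± 0.504 (4.67-fold, adjusted p 0.0028). The dim 1415854_at differed by 1.19 ± 0.410 (2.28-fold, adjusted p 0.0344), a call that was lost when any 1 of the 3 OOX arrays or COC replicate 2 or 3 was left out, with the value at 0.95 and adjusted p 0.134 without COC replicate 3. It was also lost with no filter on low values (adjusted p 0.0534). The direction was shared by 1415855_at, 1426152_a_at and 1448117_at, and by the values of 1415854_at, but the size was not. The 95% interval of 1415855_at ran from 3.80 to 5.38 and that of 1426152_a_at from 1.59 to 2.95. Calls were common in this comparison, at 33.0% of all tested probe sets and 37.0% of genes, each by its probe set of highest mean. Kitl by 1415855_at had the 8th largest rise among 12246 genes, where the median change was 0.01.

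With estrogen the rise was 3.10 ± 0.373 in 1415855_at (8.57-fold, adjusted p 1.29e-05). It was 2.18 ± 0.322 in 1426152_a_at (adjusted p 0.000101), 2.08 ± 0.504 in 1448117_at (adjusted p 0.00591) and 2.60 ± 0.410 in 1415854_at (adjusted p 0.000184). The 4 values lay closer together than without estrogen. Of all probe sets 25.3% were called, and of genes 28.2%, and Kitl by 1415855_at ranked 48th from the top.

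Adding oocytes back to oocyte-free complexes is the reverse comparison, and it shares the oocyte-free arrays with the first. Kitl fell in it. Without estrogen 1415855_at fell by 3.74 ± 0.373, to a level 13.4-fold lower (adjusted p 1.71e-06 in limma), 1426152_a_at fell by 2.52 ± 0.322 (adjusted p 2.3e-05), 1448117_at by 2.27 ± 0.504 (adjusted p 0.00296) and 1415854_at by 1.52 ± 0.410 (adjusted p 0.0106). With estrogen the falls were 3.14 ± 0.373, 2.31 ± 0.322, 1.99 ± 0.504 and 2.47 ± 0.410 in that order of probe sets (adjusted p 1.47e-05, 7.2e-05, 0.0101 and 0.000377). The background was 28.6% of probe sets (31.5% of genes) without estrogen and 19.7% of probe sets with it. By the size of its fall, 1415855_at was 10th of 12246 genes without estrogen and 29th with it. With estrogen the call of 1448117_at rested on 1 array: without E2 OOX replicate 2 it fell by 1.53 with an adjusted p of 0.0551.

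**Figure D2:**
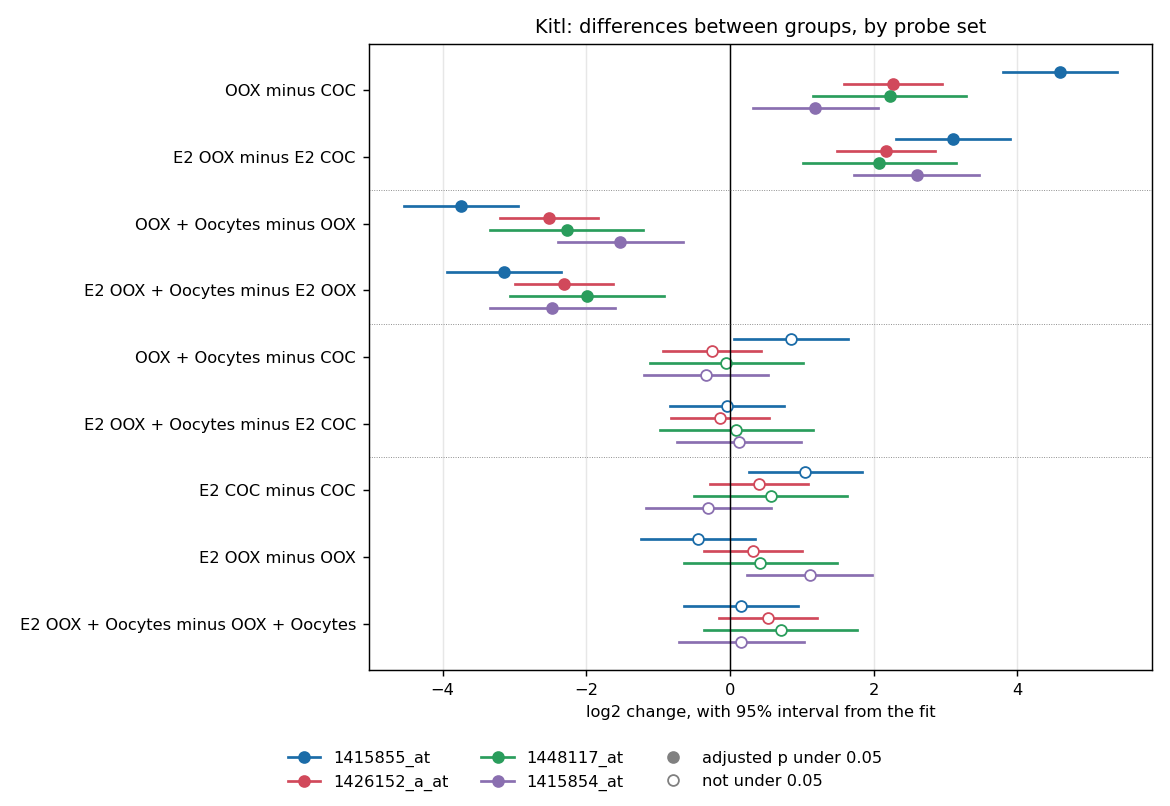
Differences between group means of Kitl (log2 change on the x axis, with its 95% interval from the fit) for 9 comparisons and the 4 probe sets, 3 arrays a group, filled symbols marking an adjusted p under 0.05. The first 4 comparisons, oocyte removal and added oocytes, were called in all 4 probe sets, and the last 5, coculture against intact complexes and estrogen against none, in none.

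Between cocultures and intact complexes no Kitl probe set was called. OOX + Oocytes minus COC was 0.85 in 1415855_at (95% interval 0.06 to 1.64, adjusted p 0.902), -0.25 in 1426152_a_at (-0.93 to 0.43), -0.05 in 1448117_at (-1.12 to 1.02) and -0.33 in 1415854_at (-1.20 to 0.53). The 3 coculture arrays of 1415855_at did not overlap the 3 COC arrays, at 6.64 to 7.63 against 5.62 to 6.63, whereas the other 3 probe sets did overlap. The share of all probe sets without overlap was not counted. With estrogen the 4 differences were -0.04, -0.13, 0.09 and 0.13, and all 4 probe sets overlapped. limma called 0 of the 25355 probe sets in either comparison (0%), with 1383 and 609 at an unadjusted p under 0.05. The intervals leave room for Kitl to differ between coculture and intact complexes by up to 1.64 log2 units without estrogen, or by up to 1.16 with it.

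Estrogen was the other treatment, and no Kitl probe set was called for it in any culture. In intact complexes the change was 1.05 ± 0.373 in 1415855_at (95% interval 0.26 to 1.84, adjusted p 0.164 in limma), 0.41 ± 0.322 in 1426152_a_at (-0.27 to 1.09), 0.57 ± 0.504 in 1448117_at (-0.50 to 1.63) and -0.30 ± 0.410 in 1415854_at (-1.17 to 0.57). The E2 COC arrays of 1415855_at, at 6.98 to 7.42, all lay above the COC arrays at 5.62 to 6.63, and the other 3 probe sets overlapped. How many of all probe sets lacked overlap was not counted. In this comparison limma called 3.43% of the 25355 tested probe sets, and 3937 had an unadjusted p under 0.05. The value of 1415855_at sat near the threshold: it was called at 1.05 without E2 OOX replicate 3 (adjusted p 0.0314) and with series 1 alone (adjusted p 0.0286), where the adjusted p over all alternatives, other Kitl probe sets included, ran from 0.0286 to 0.779.

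In oocyte-free complexes the estrogen difference took either sign. It was -0.44 in 1415855_at (95% interval -1.23 to 0.35), 0.32 in 1426152_a_at (-0.36 to 1.00), 0.42 in 1448117_at (-0.64 to 1.49) and 1.11 in 1415854_at (0.24 to 1.98, adjusted p 0.115), with 6.75% of probe sets called. Here 1 array decided the call. Without E2 OOX replicate 3 the value of 1415855_at was -1.0 and was called (adjusted p 0.0365), and that of 1415854_at was 1.72 and was called in the opposite direction (adjusted p 0.00302). Both E2 OOX arrays left in that fit are of series 1, 1 of them with conflicting labels, and no OOX array is. Estrogen and array series therefore cannot be told apart in it. In cocultures the 4 values were 0.16, 0.53, 0.71 and 0.16, where 3.26% of probe sets were called. The test of whether estrogen changed the response to oocyte removal gave -1.49 ± 0.528 in 1415855_at (adjusted p 0.211), -0.09 in 1426152_a_at, -0.14 in 1448117_at and 1.41 in 1415854_at, with 2.02% of probe sets called. Without E2 OOX replicate 3 this difference was -2.05 in 1415855_at (adjusted p 0.00654) and 2.02 in 1415854_at (adjusted p 0.0139), with the same limit from the array series. The response to added oocytes differed between estrogen states by 0.60, 0.21, 0.28 and -0.95, and 1.78% of probe sets were called. For coculture against intact complexes the values were -0.89, 0.12, 0.14 and 0.46, with 0 calls (0%) and 475 probe sets at an unadjusted p under 0.05.

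The probe sets of Kitl did not keep a fixed distance from each other, and this sets how far the sizes above can be read. A level of 1 probe set cannot be set against that of another, so only the change of their distance across arrays is described. The distance of 1415855_at above 1415854_at was 4.38 and 4.52 in OOX replicates 1 and 2, 4.52 in OOX replicate 3 and 5.25 in E2 OOX replicate 3. It was 2.06 and 1.45 in E2 OOX replicates 1 and 2. The first 4 arrays are those oocyte-free arrays outside series 1, and the last pair belongs to series 1. The distance to 1448117_at did not split in the same way: OOX replicate 3, of series 2, stood at 1.95, beside 1.68 and 0.83 in E2 OOX replicates 1 and 2 and 3.57 to 4.49 in the 3 arrays of series 3. Among arrays with oocytes the distance was 0.97 to 1.20 in COC, 2.22 to 2.67 in E2 COC, 1.77 to 2.76 in OOX + Oocytes and 1.94 to 2.71 in E2 OOX + Oocytes. COC and E2 COC, all of series 1, thus did not overlap, with means of 1.07 and 2.42. The distance to 1426152_a_at did not overlap between these groups either, at -1.50 to -0.22 in COC and -0.21 to -0.05 in E2 COC, whereas that to 1448117_at overlapped, at 0.13 to 1.43 and 0.92 to 1.61. With 3 arrays against 3 an exact permutation test cannot go below p = 0.1, so none of these can pass the threshold.

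**Figure D3:**
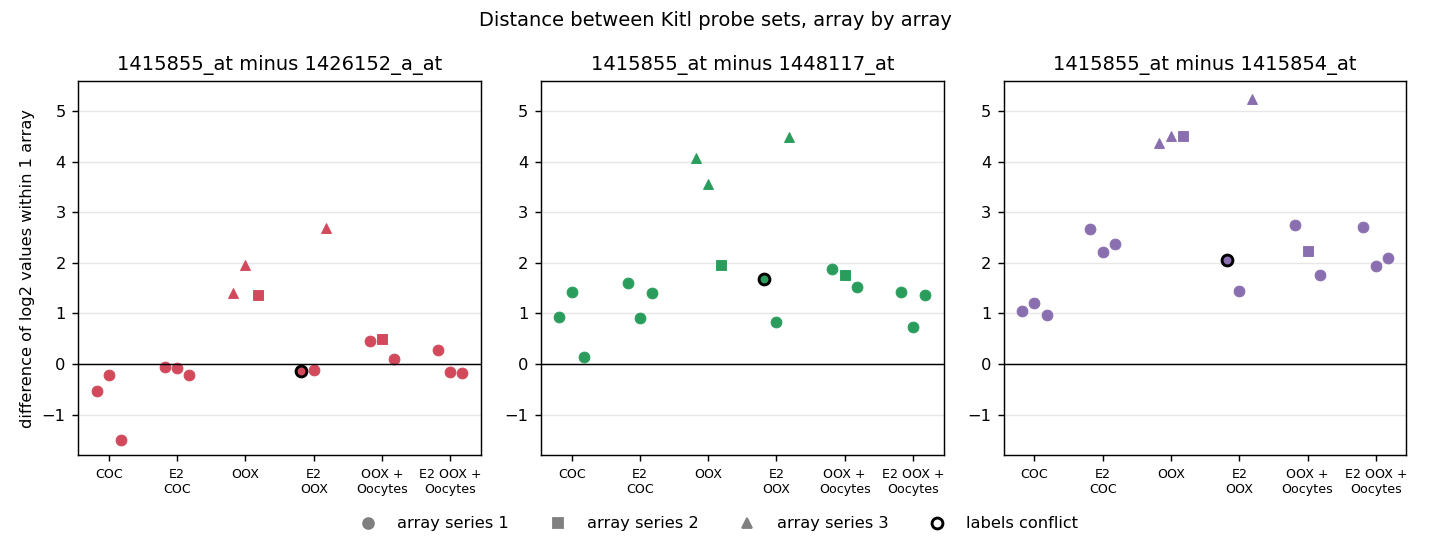
Log2 value of 1415855_at minus that of each other Kitl probe set within the same array (y axis), by group, with the symbol shape giving the array series and a black rim on the array whose labels conflict. In the middle panel the oocyte-free array of series 2 lies near those of series 1, and in the right panel the 4 oocyte-free arrays of series 2 and 3 sit at 4.38 to 5.25 and the 2 of series 1 at 2.06 and 1.45.

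Replicate 3 of E2 OOX carried the strongest case. Against the mean of replicates 1 and 2 it was higher by 1.67 in 1415855_at but lower in the other probe sets, by -1.15 in 1426152_a_at, -1.57 in 1448117_at and -1.83 in 1415854_at. The range of these 4 shifts, 3.50 log2 units, was the widest among 562 genes with 4 tested probe sets, whose median was 0.870. Differences between arrays of the same series were also taken. Within series 3, E2 OOX replicate 3 minus the mean of OOX replicates 1 and 2 was 0.66, -0.35, -0.01 and -0.14 in the order 1415855_at, 1426152_a_at, 1448117_at and 1415854_at. Within series 1, E2 OOX replicates 1 and 2 exceeded the 3 E2 COC arrays by 2.54, 2.56, 2.60 and 3.21. Within series 2, OOX replicate 3 exceeded OOX + Oocytes replicate 2 by 4.14, 3.28, 3.96 and 1.85, with 1 array on each side. The 4 probe sets lay close together in the series 1 comparison, at 2.54 to 3.21, but not in that of series 2, at 1.85 to 4.14. The arrays without oocytes were thus higher inside series 1 and inside series 2 in the 3 probe sets other than the dim 1415854_at, whose values stand as a description. When the fit held a term for the series, Kitl rose on oocyte removal without estrogen by 3.94, 3.32, 3.60 and 2.46 (adjusted p 7.84e-05, 1.08e-05, 0.000108 and 0.00157 in limma). The estrogen difference in oocyte-free complexes was then -0.10, -0.35, -0.33 and 0.30, again with no call. No OOX array shares a series with a COC array, so this fit leans on groups split over series, among them E2 OOX. The removal values lie closer to each other than those without the term. The term draws on the E2 OOX shifts given above, so that closeness is no separate support. The part of the series in the distances between probe sets was not tested further, and the positions of the probes on the transcript were not used here, so no probe set was tied to the membrane-bound or the soluble form.

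The conflicting label of E2 OOX replicate 1 bears on the same comparisons. Placed in OOX instead, that array left the 4 oocyte comparisons called in all 4 probe sets, of which 1415854_at again counts as no further support. Oocyte removal was then 4.35 without and 3.37 with estrogen in 1415855_at. The estrogen difference in oocyte-free complexes was 0.07 in 1415855_at and 0.59 in 1415854_at under that placement.

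Across the 18 arrays the Kitl probe sets correlated with each other at Pearson r from 0.737 (1415855_at with 1415854_at) to 0.930 (1426152_a_at with 1448117_at). Within groups the deviations of 1415855_at ran against those of the other 3, at r from -0.33 to -0.23, whereas the other 3 moved together at 0.621 to 0.744. These values describe 18 arrays that share groups and series.

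The message of the receptor itself was low in all groups: Kit averaged 4.28 to 5.03 in the 6 groups, below the level set for testing. Genes of the KIT receptor and its proximal signalling were taken as a list of 43, of which 34 had a probe set and 31 were tested. On oocyte removal without estrogen 8 rose and 4 fell, a share close to the background of 37.0% of genes, with a median of 0.12 beside 0.01 for all genes. With the array series as a term 5 rose and 1 fell, and with the conflicting array placed in OOX 9 rose and 1 fell. With estrogen 9 rose and 2 fell (median 0.21 beside -0.05), where 28.2% of all genes were called. With the conflicting array left out or placed in OOX, 4 rose and 2 fell with estrogen. On adding oocytes without estrogen 2 rose and 6 fell, where 31.5% of all genes were called.

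Among these genes Stat3, a transcription factor downstream of cytokine receptors, rose by 1.65 ± 0.16 without and 1.01 ± 0.16 with estrogen (adjusted p 1.28e-06 and 0.000254 in limma). Pik3r1, a regulatory subunit of phosphoinositide 3-kinase, rose by 1.40 ± 0.36 and 1.55 ± 0.36. Its catalytic partner Pik3ca rose by 1.14 ± 0.19 and 0.62 ± 0.19, and was chosen after its values were seen. Map2k1, the kinase MEK1 of the MAP kinase cascade, fell by 1.29 ± 0.24 and 1.88 ± 0.24. Ptpn11, the phosphatase SHP2 that KIT recruits, fell by 1.20 ± 0.43 without estrogen (adjusted p 0.0426), while its other tested probe set was not called. That call was lost in 11 of 18 fits that left out 1 array (-0.86 with an adjusted p of 0.183 without OOX replicate 2), and the value turned to 0.20 with the array series as a term. Estrogen in intact complexes changed 2 of the 31 genes beside 4.46% of all genes: Stat5a rose by 1.67 ± 0.28 and Map2k1 by 1.39 ± 0.24.

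Genes for negative regulators of KIT signalling were counted next, and neither their share of calls nor its direction was tested against all genes. Of 17 genes that attenuate KIT signalling 15 were tested, and 6 rose and 1 fell without estrogen (median 0.33), 7 and 1 with it (median 0.45), where 37.0% and 28.2% of all genes were called. With the array series as a term 4 rose and none fell without estrogen. The 6 rises include Dusp4, whose limit is given below. Dusp4, a phosphatase of MAP kinases in the nucleus, rose from a mean of 4.49 ± 0.256 (SD, n = 3) in COC to 8.81 ± 0.161 in OOX and stood at 5.09 ± 0.226 in OOX + Oocytes, a rise of 4.32 ± 0.23 (SE). Its means in COC and OOX + Oocytes lay below the array medians of 5.51 to 5.71. Dusp4 may thus have entered the tests only through oocyte-free arrays, and its rise is given as values. Cblb, a ubiquitin ligase of receptor kinases, rose by 2.18 ± 0.39, which with the array series as a term was 1.61 and not called (adjusted p 0.0652). Dusp6, a phosphatase of the MAP kinase ERK, rose by 1.89 ± 0.26 and Spred2, an inhibitor of RAS signalling, by 0.89 ± 0.29. Sh2b2, an adaptor of receptor kinases, was the one that fell, by 0.90 ± 0.17. Its other tested probe set was not called, and with the series as a term the value was -0.76 (adjusted p 0.0509).

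Of 15 genes for proteases that can release Kit ligand, and for their regulators, 13 were tested. On oocyte removal without estrogen 7 rose and none fell, beside 37.0% of all genes called, with a median of 0.83 beside 0.01. With the array series as a term 6 rose. With estrogen 5 rose and 1 fell (median 0.33), where 28.2% of all genes were called. Mmp2, a gelatinase, read 5.92 ± 0.34 in COC and 8.30 ± 0.0306 in OOX (SD, n = 3), a rise of 2.38 ± 0.18, against 0.96 ± 0.18 with estrogen, a value that was not called with the conflicting array placed in OOX (adjusted p 0.0576). Timp2, an inhibitor of metalloproteinases that also takes part in MMP2 activation, rose by 1.80 ± 0.24, and Mmp14, the membrane protease that activates MMP2, by 1.15 ± 0.26. Rhbdf1, an inactive rhomboid that regulates ADAM17, rose by 1.03 ± 0.22. Adam17, a sheddase known to act on Kit ligand, differed by -0.18 ± 0.20 without and -0.11 ± 0.20 with estrogen, and neither was called (adjusted p 0.53 and 0.74 in limma). Timp1, another inhibitor of metalloproteinases, fell by 0.97 ± 0.16 with estrogen in intact complexes, and with the conflicting array placed in OOX that call was lost (adjusted p 0.125).

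**Figure D4:**
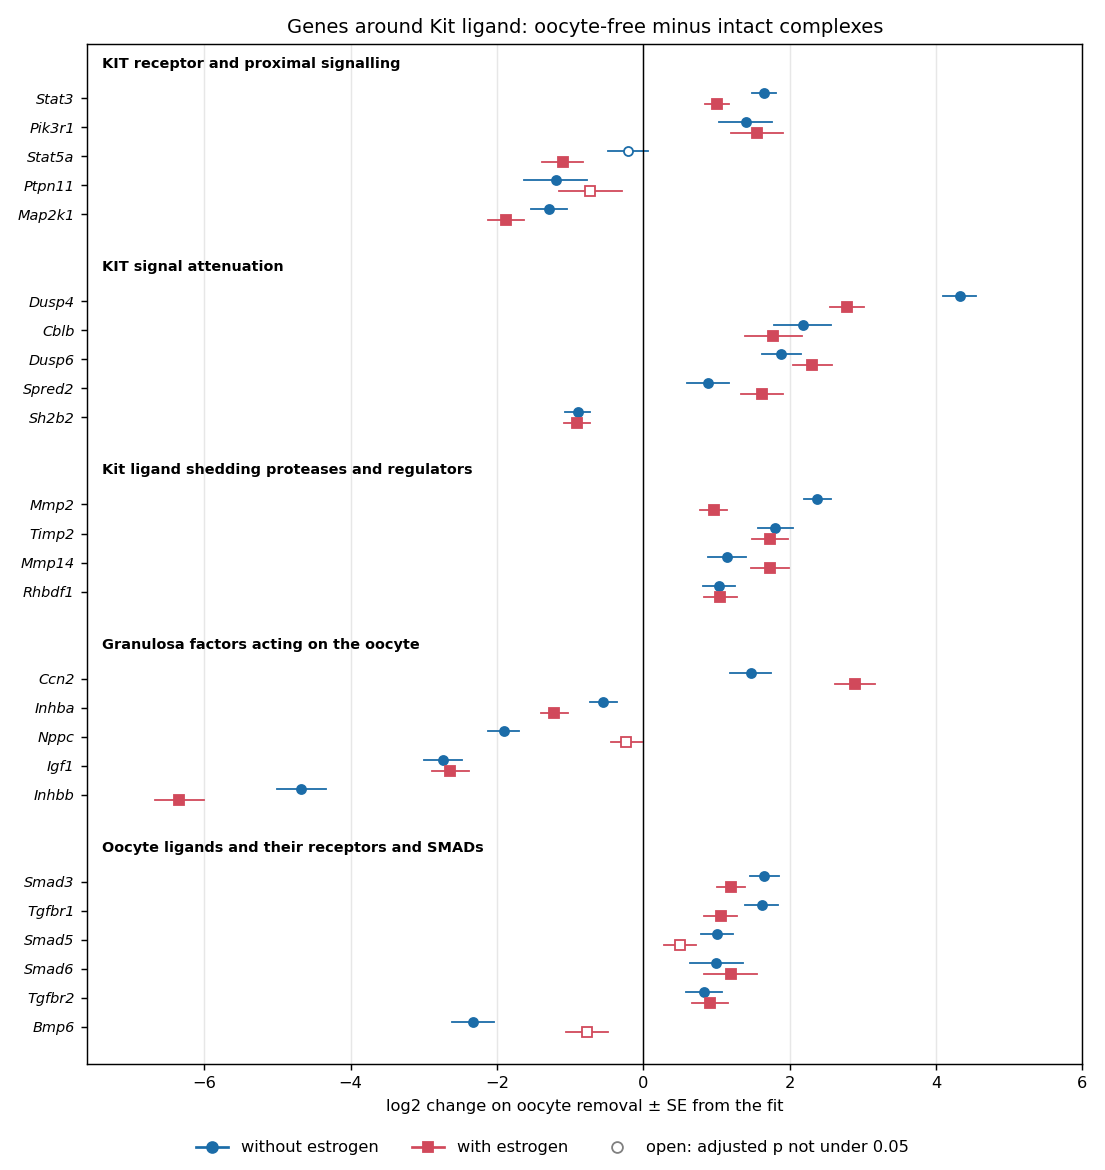
Log2 change on oocyte removal (x axis, ± SE of the fit, 3 arrays a group) without and with estrogen, for the genes named by rule in 5 lists around Kit ligand: up to 4 called genes a list and comparison with the largest change. Filled symbols have an adjusted p under 0.05. Dusp4 rose by 4.32 without and 2.78 with estrogen, and Inhbb, by its probe set of highest mean, fell by 4.67 and 6.34.

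Other ligands of the receptor family to which KIT belongs were fewer. Of 6 tested, 2 rose on oocyte removal without estrogen and none fell, a share near the 37.0% of all genes called. Pdgfd, a platelet-derived growth factor, rose by 3.21 ± 0.24 without and 3.35 ± 0.24 with estrogen, from 3.85 in COC to 7.06 in OOX and back to 3.98 in OOX + Oocytes. As with Dusp4, its means in COC and OOX + Oocytes lay below the array medians, and its rise is given as values. Pdgfc, of the same family, rose by 1.30 ± 0.28 and 1.22 ± 0.28. Among the other receptors of the family, Csf1r, Flt3, Pdgfra and Pdgfrb, no gene was called without estrogen, and Pdgfrb fell by 1.97 ± 0.51 with it, a call that was lost without E2 OOX replicate 2 (-1.55, adjusted p 0.0518) and with the conflicting array placed in OOX. Pdgfb, a ligand of PDGFRB, rose by 1.25 ± 0.27 with estrogen in intact complexes, which was not called without COC replicate 1 (0.98, adjusted p 0.0883) or without E2 COC replicate 3.

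Kitl is 1 of several signals that granulosa cells send to the oocyte, and on oocyte removal the others went in both directions. Of 12 tested, 3 rose and 6 fell without estrogen (median -0.41), and 2 rose and 3 fell with it, where 37.0% and 28.2% of all genes were called. Igf1, insulin-like growth factor, read 11.4 ± 0.0781 in COC, 8.63 ± 0.346 in OOX and 11.3 ± 0.0529 in OOX + Oocytes (SD, n = 3), a fall of 2.74 ± 0.25. Inhbb, an inhibin and activin subunit, fell by 4.67 ± 0.33 without and 6.34 ± 0.33 with estrogen. Its other tested probe set differed by only -0.66 without estrogen, a call in the same direction. Nppc, the natriuretic peptide precursor that holds the oocyte in meiotic arrest, fell by 1.91 ± 0.21 without estrogen and differed by -0.23 ± 0.21 with it, a difference between estrogen states that was itself called at 1.67 ± 0.30 (adjusted p 0.00568). Ccn2, connective tissue growth factor, rose by 1.47 ± 0.28 and 2.89 ± 0.28, and the first value was 1.00 with the array series as a term and not called (adjusted p 0.0619). Estrogen in intact complexes raised Inhbb by 2.36 ± 0.33 and Inhba, another activin subunit, by 2.11 ± 0.18, and lowered Ccn2, which fell by 1.28 ± 0.28, while Kitl was not called. The fall of Ccn2 lost its call without COC replicate 3, E2 COC replicate 1 or E2 COC replicate 2 (-1.15, adjusted p 0.0757 without E2 COC replicate 1).

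Oocyte ligands, their receptors and SMAD proteins were taken as a further list, and its counts were not tested against those of all genes. Of 21 tested genes 9 rose and 1 fell without estrogen (median 0.44), and 8 rose and none fell with it (median 0.43), where 37.0% and 28.2% of all genes were called. With the array series as a term 6 rose and 1 fell without estrogen. With the conflicting array placed in OOX 4 rose and none fell with estrogen, and with that array left out 5 rose and 1 fell. Smad3, the SMAD that carries TGF-beta and activin signals, rose by 1.65 ± 0.19 without and 1.20 ± 0.19 with estrogen, and Tgfbr1, a type I receptor for these ligands, by 1.62 ± 0.23 and 1.06 ± 0.23. Each of the pair has other tested probe sets, and none of these was called without estrogen. Bmp6, a bone morphogenetic protein, fell by 2.33 ± 0.29 without estrogen and rose by 2.74 ± 0.29 on adding oocytes.

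Esr1 was lower without the oocyte in both estrogen states, and Esr2 and Fshr depended on the state or the fit. Esr1, estrogen receptor alpha, read 9.03 ± 0.174 in COC and 6.60 ± 0.958 in OOX (SD, n = 3), a fall of 2.43 ± 0.32, and fell by 1.52 ± 0.32 with estrogen. Esr2, the beta receptor, fell by 0.81 ± 0.25 without estrogen and differed by 0.08 ± 0.25 with it. The call of Esr2 was lost without COC replicate 3 or OOX replicate 2 (-0.67, adjusted p 0.0786 without the latter), with the conflicting array placed in OOX and with the array series as a term. Of 9 tested receptors and coregulators 4 rose and 2 fell without estrogen, and none rose and 1 fell with it, beside 37.0% and 28.2% of all genes called. Fshr, the FSH receptor, fell by 1.32 ± 0.27 and 2.02 ± 0.27, the first not called with the series as a term (-0.87, adjusted p 0.139). Of 14 tested genes of FSH and cAMP signalling 4 rose and 4 fell without estrogen, with 5 and 3 with it, beside the same 37.0% and 28.2% of all genes. Estrogen itself changed 1 of the 9 genes in intact complexes beside 4.46% of all genes, where Nrip1, a corepressor, rose by 0.72 ± 0.18. That call was lost when any 1 of the 3 COC arrays or E2 COC replicate 2 or 3 was left out, with the value at 0.62 and adjusted p 0.181 without E2 COC replicate 3.

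Markers of the cells in these cultures were read beside Kitl, in comparisons where 37.0% of all genes were called on oocyte removal without estrogen and 28.2% with it. Of 9 tested cumulus markers 6 fell and none rose on oocyte removal without estrogen, and their summed level on a linear scale went from 7009 to 7820 in COC to 2788 to 3073 in OOX (lowest and highest array). Of 7 tested mural granulosa markers, a class in which Kitl itself is known to be high, 4 fell and none rose without estrogen (median -0.55). The fall of Inhba was not called with the array series as a term (-0.19) or with the conflicting array placed in OOX (-0.10). The sum over 9 genes, in which bright genes weigh most, was 11794 to 12904 in COC, 1869 to 2094 in OOX and 10817 to 13822 in OOX + Oocytes. With estrogen 5 of the 7 fell, and the sums were 22324 to 25401 in E2 COC and 3460 to 5531 in E2 OOX. Granulosa identity genes were mixed, with 6 rises and 4 falls among 11 without estrogen, and 1 rise and 3 falls with it. With the array series as a term 2 rose and 1 fell without estrogen. Nr5a2 and Fshr fell by 1.35 and 1.32, Cdh2 and Gata4 rose by 1.25 and 1.18, and none of these calls was kept with that term. Foxl2, a transcription factor of granulosa cells added after its values were seen, read 10.6 in COC and 11.6 in OOX. Theca and stroma markers, of which 6 of 10 with a probe set were tested, showed 1 rise and 3 falls without estrogen and 4 rises and no fall with it. Their sums were 4960 to 5731 in COC and 2421 to 3167 in OOX, but 1164 to 1340 in E2 COC and 3542 to 5863 in E2 OOX. Dcn, the proteoglycan decorin of stromal cells, rose by 4.48 ± 0.24 and 3.39 ± 0.24, and its level in COC was 4.60. That level lay below the array medians, so Dcn may also have been tested only through oocyte-free arrays. The theca enzyme Cyp17a1 and the collagens Col1a1 and Col1a2 stayed too low to be tested. Endothelial and blood cell markers summed to 269 to 273 in COC and 255 to 323 in OOX, and the one tested, Kdr, was not called. The sum over 18 oocyte markers was 991 to 1204 in COC and 741 to 996 in OOX. The part of any of these cell classes in the Kitl difference was not tested.

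Genes next to Kitl on chromosome 10 did not form a block with it. Counting genes with a probe set in the RefSeq order, Dusp6 is the second upstream and rose as given above, also by 2.31 ± 0.26 with estrogen. Galnt4, a glycosyltransferase and the third upstream, differed by -0.11 without and 0.14 with estrogen, and Tmtc3, the first downstream, by -0.18 and 0.04, with no call. 4930430F08Rik, the third downstream, rose by 0.49 and 0.74 (adjusted p 0.0452 and 0.00593), and the call without estrogen was lost in 12 of 18 fits that left out 1 array (0.45, adjusted p 0.116 without OOX replicate 2). Csl and Cep290 were too low to be tested.

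The genes whose levels followed 1415855_at most closely over the 18 arrays are named as a description, since all arrays share the 6 groups and the 3 series. The highest Pearson r belonged to Sesn3, a stress-response gene that restrains mTORC1 signalling, at 0.980, then Arhgap42 at 0.977, Antxr2, an anthrax toxin receptor, at 0.971, Samd8 at 0.971, Gabbr1 at 0.970, Cilk1 at 0.970, Anxa3 at 0.969 and Smad3 at 0.966. Sesn3 went from 7.21 in COC to 9.71 in OOX and 7.92 in OOX + Oocytes. The genes most opposite in level were Zfp277 at -0.974, Ntng1 at -0.973, the proteasome subunit Psma7 at -0.973, the ribosome biogenesis factor Nop56 at -0.972 and Tex14 at -0.969. Tex14 fell by 5.40 without the oocyte and Nop56 by 2.07. In all, 229 genes had an r above 0.9 with this probe set and 301 an r below -0.9, so that closeness to Kitl was common. Set against 1426152_a_at, the 13 genes had r values of smaller size, 0.84 to 0.90 and -0.92 to -0.84. Within groups the r of the 8 most alike with 1415855_at was 0.30 to 0.75. For Samd8, Gabbr1, Cilk1 and Smad3, no other tested probe set was called on oocyte removal without estrogen, and those with estrogen were not examined.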

How the data were processed

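The deposited table holds log2 values that the authors made with RMA, and the submitters' processing notes name Affymetrix Expression Console 1.1. Values have 2 decimals. RMA includes quantile normalization, which hides a change common to most transcripts, and folds of dim genes are understated. No detection calls or background levels were used. The number of arrays limits the precision, and no 2 arrays were identical. Groups came from sample titles. Probe sets above the array median in at least 3 of 18 arrays were tested (25355). A gene dim with oocytes can pass this filter through the oocyte-free arrays alone. Symbols were updated by Entrez identifier for 34741 probe sets through the RefSeq table of GRCm38.p6, which also gave promoter sequence and gene order. A gene was represented by its probe set of highest mean (12246 genes). Of 57 called named genes, 33 have another tested probe set, 14 of which had none called the same way without estrogen.

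limma 3.58.1 in R 4.3.3 (lmFit, eBayes) fitted 6 group means over all arrays, with Benjamini-Hochberg adjustment over all tested probe sets and calls at an adjusted p under 0.05, two-sided. The SE comes from that fit and is shared by groups. The script was tested on simulated data. The Kitl probe sets, the gene lists and the tests were chosen with earlier results of these data known. Named genes were, per list and comparison, up to 4 called genes with the largest change, besides Kit, Gdf9, Bmp15, Adam17, Fshr, Esr1 and Esr2, the 3 neighbours on each side, and the 8 genes most alike and 5 most opposite. Genes named as low or not called in a list, and Pik3ca, Foxl2, Csf1r, Flt3, Pdgfra, Cyp17a1, Col1a1, Col1a2 and Kdr, were added after their values were seen. Replicate numbers follow the running order of the titles. Alternatives varied the filter, normalization, array series, array weights, variance model, samples and label of 1 array.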

Additional observations from a re-analysis of the deposited data

Results flagged for a closer look

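No Kitl probe set met a test for a closer look. Of the other genes named, 11 responded differently to oocyte removal with and without estrogen by limma's interaction test, and each value below is the log2 change with estrogen minus that without. That test called 513 of all probe sets (2.02%), and 103 with E2 OOX replicate 1 placed in OOX. The 11 genes had been named for large removal changes in these same data, so their number is a description. Their interactions were not run under the alternatives.

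Smaller rises with estrogen were seen in Dusp4, at -1.54 ± 0.33 (SE, adjusted p 0.0177), and Mmp2, at -1.41 ± 0.26 (adjusted p 0.0064). The limit given above for Dusp4, dim in COC and OOX + Oocytes, holds here as well. Smaller falls with estrogen were seen in Nppc, at 1.67 ± 0.30 (adjusted p 0.00568), Slc38a3, an amino acid transporter of cumulus cells, at 1.59 ± 0.27 (adjusted p 0.00433), and Gli1, a hedgehog target, at 1.34 ± 0.25 (adjusted p 0.00746). Wt1, a transcription factor of granulosa cells, rose more with estrogen, at 1.44 ± 0.24 (adjusted p 0.00354).

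The direction turned between estrogen states in others. Acta2, smooth muscle actin, fell by 1.91 without estrogen and rose by 2.98 with it, a difference of 4.88 ± 0.46 (adjusted p 4.56e-05). With the array series as a term its fall without estrogen was not called (adjusted p 0.0521). Ptch1, the hedgehog receptor, fell by 1.22 and rose by 1.02, a difference of 2.24 ± 0.25 (adjusted p 0.00014). Its 2 other tested probe sets differed by -0.65 and -0.14 without estrogen and were not called. Amhr2, the receptor of anti-Müllerian hormone, rose by 0.57 and fell by 0.53, a difference of -1.10 ± 0.22 (adjusted p 0.0105), though the fall lost its call without E2 COC replicate 1 or 3 or E2 OOX replicate 3 (-0.42, adjusted p 0.085 without the last) and with the conflicting array placed in OOX (-0.61, adjusted p 0.0775). Pdgfrb differed by 1.24 without a call and fell by 1.97, a difference of -3.21 ± 0.73 (adjusted p 0.0274), and Vcan, the proteoglycan versican, differed by 0.21 without a call and fell by 1.65, a difference of -1.86 ± 0.39 (adjusted p 0.0176).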

How the results depend on the processing

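The calls of 1415855_at on oocyte removal and on adding oocytes, with and without estrogen, kept their direction and side of the threshold under every alternative run. Estrogen in intact complexes, 1.05 and not called, was called at 1.01 with array weights (adjusted p 0.0302), at 1.05 with array series 1 alone (0.0286) and at 1.05 without E2 OOX replicate 3 (0.0314). Leaving out each array in turn gave 0.76 (without COC replicate 3) to 1.26 (without COC replicate 1). Estrogen in oocyte-free complexes, leaving out arrays, ran from -1.0 (without E2 OOX replicate 3, called) to -0.16 (without E2 OOX replicate 2). It was -0.10 with a term for the series and 0.07 with E2 OOX replicate 1 placed in OOX, and the adjusted p over all alternatives was 0.0365 to 0.978. The interaction of estrogen with oocyte removal was called with array weights at -1.71 (adjusted p 0.0318), and leaving out arrays gave -2.05 (without E2 OOX replicate 3, called) to -1.20 (without COC replicate 3), with adjusted p 0.00654 to 0.968 over all alternatives. Ptpn11 on oocyte removal turned from -1.20 to 0.20 with a term for the array series. Estrogen in oocyte-free complexes was called in 1415854_at with array weights at 1.36 (adjusted p 0.0222), as was its interaction with removal at 1.75 (0.0415). Without E2 OOX replicate 3, estrogen and array series cannot be told apart in oocyte-free complexes. The cause of these changes was not tested.

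Called probe sets moved by more than 1.5 times in these cases. Oocyte removal without estrogen went from 8372 to 4730 with the series as a term, and added oocytes without estrogen from 7247 to 4768 with only the groups compared. Estrogen in intact complexes (870) gave 489 without E2 COC replicate 3, 1464 with the series as a term, 1308 with only the groups compared, 1687 with series 1 alone and 2753 with array weights. Estrogen in oocyte-free complexes (1711) gave 1 with E2 OOX replicate 1 placed in OOX, 199 with only the groups compared, 689 with the series as a term, 663 to 2797 with 1 array left out (E2 OOX replicate 1 and replicate 3) and 4173 with array weights. Estrogen in cocultures (826) gave 532 with that array placed in OOX, 483 at the lowest with 1 array left out and 2767 with array weights. The interaction with removal (513) gave 103, 343 to 1004 and 1560 under the same settings. The interaction with added oocytes (452) gave 77, 284 to 699 and 1796, and 232 with only the groups compared. Coculture against intact complexes, with 0 calls, gave up to 31 without and 19 with estrogen, and its interaction up to 2. With 1 probe set per gene the 4 oocyte comparisons gave 4743, 3702, 4063 and 3011 of 12246 tested genes.

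Of 185 calls of named genes, 167 were kept with the series as a term (1 of the others turned), 171 with the conflicting array placed in OOX and at least 175 under each other setting, besides series 1 alone, which could test 71 and kept 69. Same-numbered samples of different groups did not deviate together (45 pairs, r -0.524 to 0.497, median -0.012), so the numbers were not taken to pair samples. With the replicate block, oocyte removal without estrogen was 4.59 (adjusted p 8.86e-07 in limma) and estrogen in intact complexes 1.05 (0.197). No Kitl call changed with the block, and of the 185 only that of Ptpn11 was lost. The fit of series 1 alone and the mean of the 4 Kitl probe sets were added after seeing the data. Dim probe sets near the array median and 3 arrays a group limit what can be seen.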
